A study of Caenorhabditis elegans with 6 samples.

Results

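The genes with which Caenorhabditis elegans binds, stores or exports metal were followed in whole worms given gold nanoparticles and in control worms. Taken here were 10 of them, the metallothionein genes mtl-1 and mtl-2, the cadmium-responsive genes cdr-1, cdr-2, cdr-4 and cdr-5, the ferritin genes ftn-1 and ftn-2, and the phytochelatin-pathway genes hmt-1 and pcs-1. The members were chosen by name, with earlier results of these data known. Every probe set whose only gene symbol in the platform annotation was one of these 10 was taken. Of the 10 genes, 9 had at least 1 such probe set, which gave 12 of the 22548 probe sets tested, and cdr-5 was not analysed here.

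The Au-NP group held wild-type N2 worms at the third larval stage (L3) that were kept for 12 h in dilute salt solution (50% K-medium) with 5.9 mg/L of citrate-coated gold particles 4 nm in diameter. The labels call this dose the LC10, a lethal concentration for a small share of the worms. The control group held N2 worms of the same stage, named in the labels only as control. Both groups are listed with 50% K-medium, the same schedule of 12 h and 12 h, and 20 °C. Exposure was followed by 12 h in particle-free medium, RNA was taken at 24 h, and each group had 3 dishes of about 2000 worms with 1 Affymetrix array per dish. The labels do not mention separate cultures. What a p-value weighs here is dish-to-dish spread, which may be technical.

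Metallothioneins are small cysteine-rich proteins that bind zinc, cadmium and copper ions, and in C. elegans both genes are switched on in the intestine by cadmium. CDR-1 is a membrane protein of intestinal lysosomes that protects worms from cadmium, and the other cdr genes were named for their likeness to it. Ferritins hold iron in a protein shell, and phytochelatins are peptides made from glutathione that trap heavy metals.

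Among the members, 3 genes were higher and 1 was lower in the Au-NP arrays. The genes that rose were mtl-1, cdr-2 and ftn-1, by 0.45, 0.50 and 0.39 on the log2 scale, and the gene that fell was hmt-1, an ABC transporter of heavy-metal tolerance, with a log2 change of -0.76. The other 5 genes, mtl-2, cdr-1, cdr-4, ftn-2 and pcs-1, did not pass the test. Passing means an adjusted p below 0.05 by limma with Benjamini-Hochberg adjustment over all 22548 probe sets. Over all 17118 genes with a probe set of their own, 7.49% were higher and 4.94% were lower by the same test, against 3 of 9 and 1 of 9 members. Of the 12 member probe sets 3 were higher and 1 lower, where the shares over all probe sets were 6.24% and 5.68%. Leaving out Au-NP replicate 1 gave 2 higher (cdr-2, ftn-1) and 1 lower (hmt-1) probe sets, with 666 and 1118 of all 22548 called. Leaving out Au-NP replicate 3 gave 2 higher (mtl-1, cdr-2) and 2 lower (hmt-1, cdr-4), with 2047 and 1953 of all called. Leaving out Au-NP replicate 2 gave 0 higher and 1 lower. Leaving out any 1 control array gave 1 higher (cdr-2) and 1 lower, with 309 to 402 and 533 to 640 of all called. In the fit without Au-NP replicate 2 the shares over all probe sets were 0.648% higher and 1.82% lower. At an unadjusted limma p below 0.05 that fit had 4 members higher and 1 lower, against 12.4% and 7.99% of all probe sets. The median log2 change was 0.20 over the 9 members, taken at the probe set of highest mean for each gene, and 0.04 over all genes.

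"Higher" and "lower" follow the labels of the arrays. The published account of this experiment, as far as it is remembered and without a check, gave higher levels in exposed worms for genes such as the intestinal actin act-5, which had a log2 change of -0.85 ± 0.15 (SE) here, lower in the arrays labelled Au-NP. No value used here decides between the labels and that recollection. If the labels were exchanged, every sign and direction given here would turn. Array medians lay between 7.03 and 7.09. Replicate 3 of the Au-NP group lay apart from the other two, with Pearson's r across probe sets of 0.988 and 0.990 to them, where they had 0.997 with each other. Between Au-NP and control arrays r ran from 0.985 to 0.990. In the fit with array weights, Au-NP replicate 3 had the lowest weight (0.498). Calls of members and of the named metal genes that depend on that replicate are given with and without it.

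The metallothionein gene mtl-1 was higher in worms labelled Au-NP. Its probe set 172744_at had log2 values of 13.34, 13.37 and 13.11 in Au-NP replicates 1 to 3 and 12.82, 12.98 and 12.67 in control replicates 1 to 3. All Au-NP arrays lay above all control arrays, with a gap of 0.13 between the lowest Au-NP and the highest control value. The group means were 13.27 ± 0.14 and 12.82 ± 0.16 (SD, n = 3 each), a log2 change of 0.45 ± 0.11 (SE) or 1.37-fold (limma adjusted p = 0.0424). This call held in 1 of the 6 fits that left out an array, the one without Au-NP replicate 3 (0.53, limma adjusted p = 0.0131). It was lost without Au-NP replicates 1 and 2 (limma adjusted p = 0.112 and 0.153), and without control replicates 1, 2 and 3 it was 0.113, 0.0609 and 0.128. Its change stayed between 0.37 and 0.53 in those fits.

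The second metallothionein gene, mtl-2, did not pass at any of its 3 probe sets, all of which carry suffixes that mark possible cross-hybridization with related sequences. Probe set 194150_x_at had 13.80, 13.76 and 13.74 in the Au-NP arrays and 13.66, 13.53 and 13.29 in the control arrays. Its groups did not overlap, and the control arrays were spread more widely than the Au-NP arrays. Probe set 194151_x_at, at 13.74, 13.82 and 13.68 in Au-NP against 13.62, 13.61 and 13.35 in control, was also free of overlap. Probe set 188487_s_at had 13.61, 13.86 and 13.73 in Au-NP and 13.74, 13.54 and 13.34 in control, and its groups overlapped through control replicate 1. The log2 changes were 0.27 ± 0.10, 0.22 ± 0.10 and 0.20 ± 0.12 (SE), with limma adjusted p of 0.144, 0.207 and 0.369. The 95% intervals, from 0.03 to 0.52, from -0.01 to 0.45 and from -0.08 to 0.48, all included changes about as large as that of mtl-1. The within-array difference of mtl-1 from the mean of the mtl-2 probe sets was higher in the Au-NP group by 0.22, which did not exceed the spread (two-sided exact permutation p = 0.2, adjusted 0.25 over 5 pairs of members). With 3 arrays against 3 the exact permutation test cannot go below p = 0.1. That the one gene passed and the other did not is therefore no measured difference between them.

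**Figure D1:**
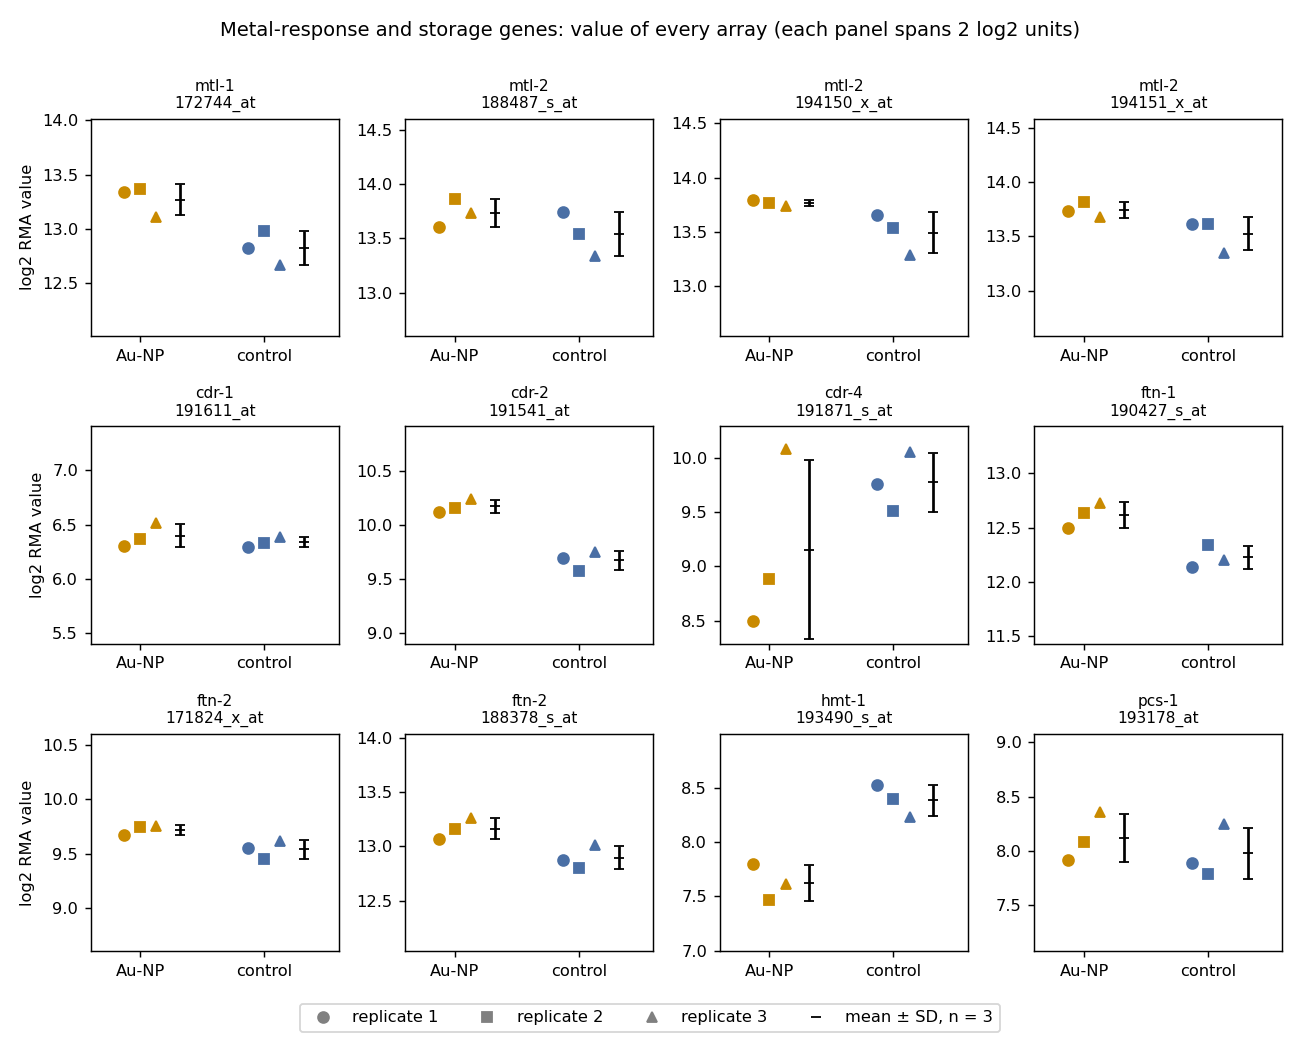
Log2 value of each of the 12 probe sets (y axis; every panel spans 2 log2 units) in the Au-NP arrays (gold, left) and the control arrays (blue, right). Marker shapes give the replicate number and black bars the mean ± SD (n = 3). The groups of mtl-1, cdr-2, ftn-1 and hmt-1 do not overlap, and for cdr-4 Au-NP replicate 3 (10.08) lies with the controls.

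Of the 3 cdr members measured, 1 passed. For cdr-2, probe set 191541_at had 10.12, 10.16 and 10.24 in the Au-NP arrays and 9.70, 9.58 and 9.75 in the control arrays. The replicates of each group lay close together and 0.38 separated the nearest Au-NP and control values. The means were 10.17 ± 0.06 and 9.67 ± 0.09 (SD, n = 3 each), and the log2 change was 0.50 ± 0.08 (SE) or 1.41-fold (limma adjusted p = 0.0119). It passed in 5 of the 6 fits without an array, the exception being the fit without Au-NP replicate 2 (limma adjusted p = 0.0570). In those fits its change lay between 0.45 and 0.54.

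The founding member of the family, cdr-1, whose transcription cadmium induces strongly in the intestine, showed hardly any spread. Probe set 191611_at had 6.31, 6.37 and 6.51 in Au-NP against 6.30, 6.34 and 6.39 in control, and the groups overlapped. All these values lay below the array medians (7.03 to 7.09), and RMA compresses low signals. The log2 change of 0.06 ± 0.08 (SE; 95% interval from -0.13 to 0.25, limma adjusted p = 0.742) had an interval that ended below the change of cdr-2. The within-array difference of cdr-2 from cdr-1 was higher in Au-NP by 0.44, with 3.81, 3.79 and 3.72 in the Au-NP arrays and 3.40, 3.24 and 3.36 in the control arrays. Those values did not overlap, and the two-sided exact permutation p was 0.1, the smallest this design allows (adjusted 0.167 over 5 pairs).

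The gene cdr-4 was the most variable member. Probe set 191871_s_at had 8.495 and 8.88 in Au-NP replicates 1 and 2 and 10.08 in Au-NP replicate 3, against 9.76, 9.51 and 10.05 in control replicates 1 to 3. The first 2 Au-NP arrays were below every control array and the last was above every one. With all arrays the log2 change was -0.62 ± 0.38 (SE; 95% interval from -1.50 to 0.26, limma adjusted p = 0.364). Leaving out Au-NP replicate 3 gave -1.08 (limma adjusted p = 0.00445) and leaving out Au-NP replicate 1 gave -0.29 (limma adjusted p = 0.716), so that 1 array decided the call. The within-array difference of cdr-2 from cdr-4 was 1.63, 1.27 and 0.16 in Au-NP and -0.06, 0.06 and -0.31 in control, again with an exact permutation p of 0.1 (adjusted 0.167).

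The cdr genes also show how neighbours on a chromosome behaved. In the reference gene order of assembly WBcel235, cdr-7, cdr-6, cdr-2 and cdr-3 follow one another with 0 protein-coding genes between them, and 1 protein-coding gene lies between cdr-4 and cdr-7. Next to cdr-2, which rose by 0.50, cdr-6 had 0.23 ± 0.10 (SE, limma adjusted p = 0.182), from values of 10.60, 10.67 and 10.83 in Au-NP and 10.61, 10.37 and 10.43 in control. On its other side cdr-3 had 0.02 ± 0.07 (limma adjusted p = 0.931), from values of 4.45, 4.30 and 4.36 in Au-NP and 4.36, 4.32 and 4.38 in control. These cdr-3 values lay far below the array medians (7.03 to 7.09), where RMA compresses signals. Whether the probe set detected the transcript was not tested, so its flat value does not show an unchanged gene. Of the non-members cdr-6 and cdr-3, 0 of 2 passed limma, and at an unadjusted p below 0.05 there was 1, cdr-6 (higher). Over all genes 7.49% were higher at the adjusted and 18.9% at the unadjusted limma p. The sign of cdr-3 turned in some settings, to -0.02 without Au-NP replicate 1 and -0.09 after the correction for gene span described below.

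**Figure D2:**
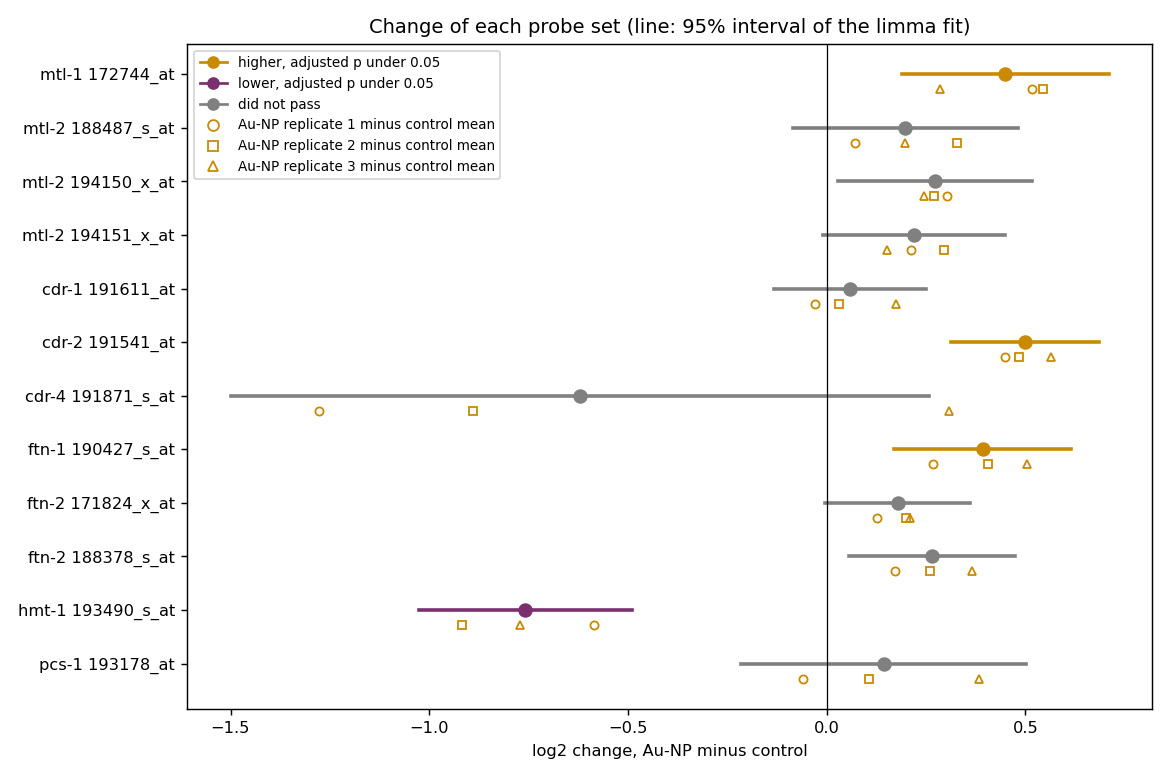
Log2 change (x axis, Au-NP minus control) of each probe set, with filled circles for the estimate and lines for its 95% limma interval; open symbols below give each Au-NP array minus the control mean. The 3 called rises lie between 0.39 and 0.50, hmt-1 lies at -0.76, and the Au-NP arrays of cdr-4 run from -1.28 to 0.31.

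Both ferritin genes had positive values, and 1 passed. FTN-1 is the intestinal ferritin whose transcription follows iron supply, and FTN-2 is the more broadly expressed one. For ftn-1, probe set 190427_s_at had 12.49, 12.63 and 12.73 in the Au-NP arrays and 12.13, 12.34 and 12.20 in the control arrays. This probe set, the only one of ftn-1, carries a suffix of possible cross-hybridization. Every Au-NP value was above every control value, by at least 0.15. The means were 12.62 ± 0.12 and 12.23 ± 0.11 (SD, n = 3 each), with a log2 change of 0.39 ± 0.09 (SE) or 1.31-fold (limma adjusted p = 0.0393). Only the fit without Au-NP replicate 1 kept this call among the 6 that left out an array (limma adjusted p = 0.0444). It was lost without Au-NP replicates 2 and 3 (limma adjusted p = 0.136 and 0.0560), and without control replicates 1, 2 and 3 it was 0.117, 0.0658 and 0.119. The change lay between 0.34 and 0.46 throughout.

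For ftn-2, probe set 188378_s_at had 13.07, 13.15 and 13.26 in Au-NP and 12.87, 12.80 and 13.01 in control. The other probe set of that gene, 171824_x_at, had 9.67, 9.74 and 9.75 in Au-NP and 9.55, 9.45 and 9.62 in control. At both the groups were separate, by 0.06 and 0.05, and both carry suffixes of possible cross-hybridization. The log2 changes were 0.27 ± 0.09 and 0.18 ± 0.08 (SE), with limma adjusted p of 0.101 and 0.197. The 95% intervals reached from 0.06 to 0.48 and from -0.003 to 0.36. The within-array difference of ftn-1 from the mean of the ftn-2 probe sets was higher in Au-NP by 0.17, within the spread of the arrays (two-sided exact permutation p = 0.3, adjusted 0.3).

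The only member called lower was hmt-1, taken here with pcs-1 as a phytochelatin-pathway gene. Phytochelatin synthase, the product of pcs-1, joins glutathione units into phytochelatins, and HMT-1 is an ABC transporter that C. elegans needs to withstand cadmium and arsenic. For hmt-1, probe set 193490_s_at had 7.80, 7.47 and 7.61 in the Au-NP arrays and 8.52, 8.40 and 8.23 in the control arrays. The groups were 0.44 apart at their nearest values, the widest gap of the 12 probe sets. The means were 7.62 ± 0.17 and 8.38 ± 0.14 (SD, n = 3 each), a log2 change of -0.76 ± 0.11 (SE) or 1.69-fold (limma adjusted p = 0.0102). The call held in all 6 fits that left out an array, with changes from -0.84 to -0.68 and limma adjusted p from 0.00642 to 0.0489. At the threshold of 0.05 it also held in every other refit except the one without probe sets of possible cross-hybridization, which removes its single probe set.

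For pcs-1, probe set 193178_at had 7.92, 8.08 and 8.36 in Au-NP and 7.89, 7.79 and 8.25 in control. The groups overlapped, with a replicate 3 array highest in each. The log2 change was 0.14 ± 0.15 (SE; 95% interval from -0.22 to 0.50, limma adjusted p = 0.645). The within-array difference of hmt-1 from pcs-1 was lower in Au-NP by 0.90 (-0.12, -0.62 and -0.75 in Au-NP against 0.63, 0.60 and -0.01 in control). The exact permutation p was 0.1 (adjusted 0.167 over 5 pairs).

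Over the 12 probe sets, 7 had all Au-NP values above all control values and 1 had them all below, in 6 genes. Of all tested probe sets 30.8% had separate groups, 19.2% upward and 11.6% downward. Probe sets of 1 gene share its transcript and do not count as separate genes.

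Other genes of metal handling were taken by role, and 51 of the 58 listed had a probe set of their own. Of these 3 were higher and 1 was lower, and 13 and 6 had an unadjusted limma p below 0.05 in those directions. The shares over all genes were 7.49% higher and 4.94% lower, and at the unadjusted p they were 18.9% and 9.1%, which also stand behind the unadjusted counts of the single lists below. The median log2 change was 0.07 over these genes against 0.04 over all. In the zinc list 1 of 20 genes rose and 0 fell (at an unadjusted limma p below 0.05, 7 and 2). That gene was sur-7, a zinc carrier of the cation diffusion facilitator family, with 8.61, 8.60 and 8.59 in Au-NP and 8.30, 8.19 and 8.37 in control at probe set 185979_s_at. Its change was 0.31 ± 0.08 (SE, limma adjusted p = 0.0423), its second probe set had 0.40 ± 0.13 (limma adjusted p = 0.0906), and the call was lost in all 6 fits that left out an array. The called probe set of sur-7 carries a suffix of possible cross-hybridization. The nuclear receptor gene hizr-1, the zinc sensor that activates mtl-1 and cdf-2 in zinc excess, had 6.04, 6.05 and 6.07 in Au-NP against 5.84, 5.48 and 5.80 in control. Its groups did not overlap and its change of 0.34 ± 0.11 (SE) did not pass (limma adjusted p = 0.0837).

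In the iron and heme list 2 of 14 genes rose and 0 fell (at an unadjusted limma p below 0.05, 4 and 2). The ferroportin gene fpn-1.1, whose family exports iron from cells, had 8.58, 8.78 and 8.80 in Au-NP and 8.13, 8.18 and 8.44 in control. The log2 change was 0.47 ± 0.11 (SE, limma adjusted p = 0.0349). The frataxin gene frh-1, which serves mitochondrial iron-sulfur assembly, had 9.01, 9.22 and 9.29 in Au-NP and 8.86, 8.75 and 8.74 in control, a change of 0.39 ± 0.09 (limma adjusted p = 0.0402). Of the 6 fits without an array, 3 kept the call of fpn-1.1 and 1 kept that of frh-1. The limma adjusted p of fpn-1.1 was 0.131 without Au-NP replicate 2 and 0.108 and 0.113 without control replicates 1 and 2. That of frh-1 passed without Au-NP replicate 1 alone (0.0307) and otherwise reached from 0.0580 to 0.144. The aconitase gene aco-1, related to the mammalian iron regulatory proteins, had 9.91, 9.84 and 10.29 in Au-NP and 10.55, 10.33 and 10.52 in control. Every Au-NP value was below every control value, and the change of -0.46 ± 0.13 did not pass (limma adjusted p = 0.0670). Without Au-NP replicate 3 it was -0.60 and passed (limma adjusted p = 0.00642).

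With all arrays no gene passed among the other groups of carriers and tolerance genes. These were 2 copper genes, with 0 at an unadjusted limma p below 0.05, and 8 metal-inducible and tolerance genes, likewise with 0. Among the regulators 1 of 5 fell and 0 rose. It was daf-16, the FOXO factor of insulin signalling, which activates mtl-1 and ftn-1. Its probe set 175678_at had 9.36, 9.22 and 8.77 in Au-NP and 9.998, 9.94 and 9.61 in control, a change of -0.73 ± 0.17 (SE, limma adjusted p = 0.0358). The other 3 probe sets of daf-16 had -0.29, -0.22 and -0.16 and did not pass, and the call at the first was lost without Au-NP replicate 2 and without each control array (limma adjusted p from 0.0587 to 0.116). The intestinal GATA factor elt-2, needed for the induction of cdr-1 and the metallothioneins, had 0.24 ± 0.11 and 0.18 ± 0.12 at its 2 probe sets (limma adjusted p = 0.224 and 0.394).

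The fit that left out Au-NP replicate 3 had 2 genes of the wider lists higher and 5 lower, where the shares over all genes in that fit were 10.8% and 8.14%. Beside fpn-1.1, daf-16 and aco-1 they were 4 genes named after their values were seen, none of which passed with all arrays. The heme-responsive gene hrg-9 had 0.54 at probe set 177253_at in that fit (limma adjusted p = 0.0236) and 0.47 with all arrays (limma adjusted p = 0.0507). The other hrg-9 probe set, 173404_s_at, did not pass, with 0.26 in that fit (limma adjusted p = 0.238) and 0.23 with all arrays (limma adjusted p = 0.290). The copper-transporting ATPase gene cua-1 had -0.52 (limma adjusted p = 0.0343) and -0.34 with all arrays (limma adjusted p = 0.304). Glutathione synthetase, encoded by gss-1, had -0.32 at 1 of its 2 probe sets (limma adjusted p = 0.0477) and -0.14 with all arrays (limma adjusted p = 0.661). The stress-response factor gene skn-1 had -0.48 at 1 of its 3 probe sets (limma adjusted p = 0.0449) and -0.42 with all arrays (limma adjusted p = 0.0841).

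**Figure D3:**
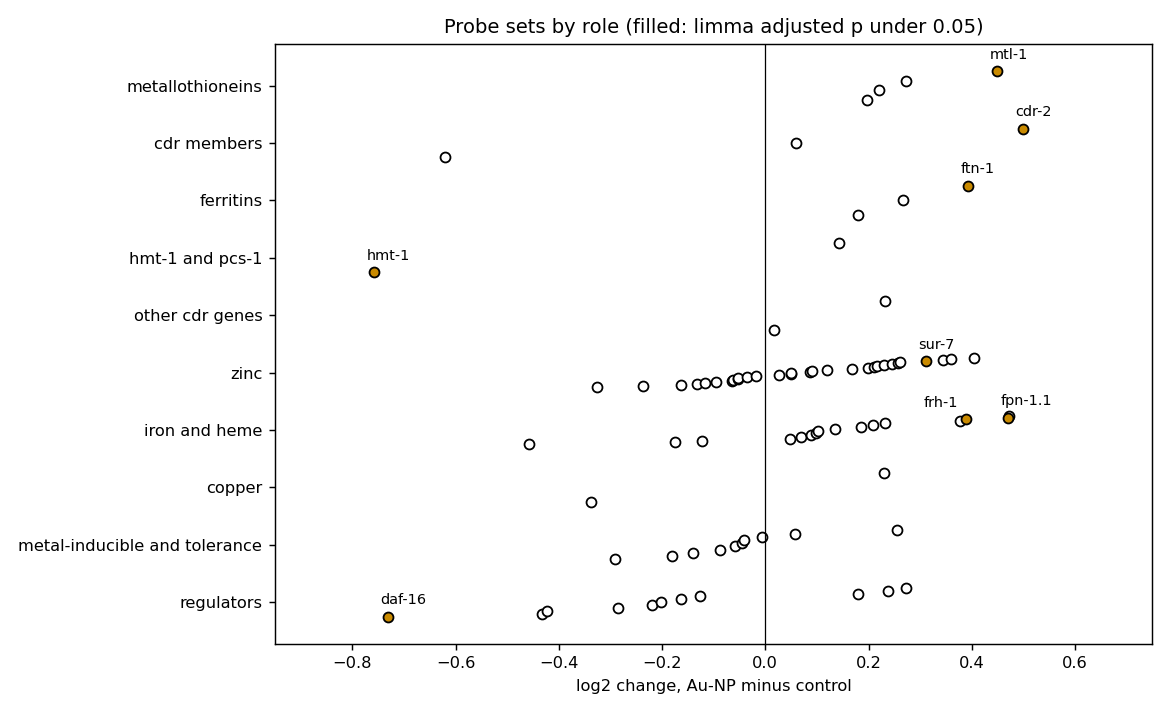
Log2 change (x axis, Au-NP minus control) of the probe sets of the members and of the other metal genes, 1 circle per probe set, grouped by role; filled circles passed a limma adjusted p of 0.05 and are named. The called members lie at -0.76 and from 0.39 to 0.50, and the 4 other called genes at -0.73 and from 0.31 to 0.47.

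The members are mostly short genes, and over all probe sets the shares called higher and lower differed with gene length. Gene span, the length from start to end with introns in the reference gene table, was 493 bp for mtl-1, 404 bp for mtl-2, 748 bp for ftn-2, 1054 bp for cdr-2, 1112 bp for ftn-1 and 1260 bp for cdr-4. Longer were cdr-1 at 1512 bp, pcs-1 at 2800 bp and hmt-1 at 8417 bp. Of the 12 probe sets, 9 thus fell in the shortest of 5 equal bins of span (up to 1285 bp), where 11.7% of probe sets were higher and 1.16% lower. The probe set of hmt-1 fell in the longest bin (from 5441 bp), where 2.27% were higher and 15% lower. Once the lowess trend of every array with log2 span had been subtracted, cdr-2 had 0.39 ± 0.09 (SE, limma adjusted p = 0.0343) and hmt-1 had -0.70 ± 0.11 (limma adjusted p = 0.0130), and both passed. In the same fit mtl-1 had 0.32 ± 0.10 (limma adjusted p = 0.107) and ftn-1 had 0.29 ± 0.10 (limma adjusted p = 0.112), and neither passed. A further quantile normalization of the deposited values likewise ended the calls of mtl-1 (0.40, limma adjusted p = 0.0573) and ftn-1 (0.35, limma adjusted p = 0.0719) and kept those of cdr-2 and hmt-1. Of the other metal genes, the span correction kept the call of fpn-1.1 (0.47, limma adjusted p = 0.0347). It ended those of sur-7 (0.28, limma adjusted p = 0.0619), frh-1 (0.29, limma adjusted p = 0.141) and daf-16 (-0.56, limma adjusted p = 0.0998), which left 1 of the 51 higher and 0 lower. After that correction the probe sets of mtl-2 lay between 0.06 and 0.14 and those of ftn-2 were at 0.06 and 0.15.

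**Figure D4:**
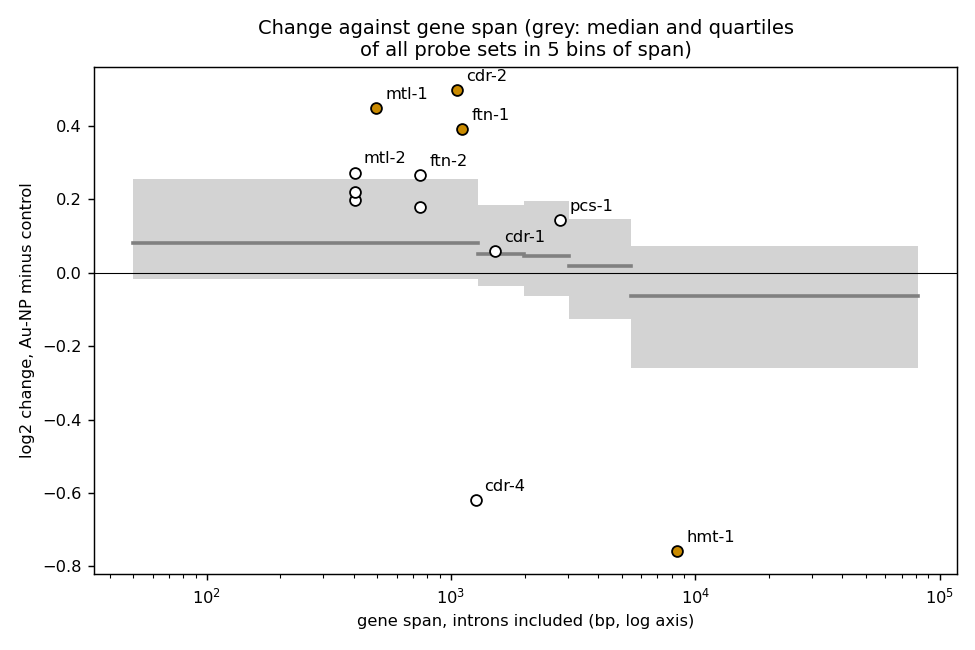
Log2 change (y axis, Au-NP minus control) of the member probe sets against gene span (x axis, bp, log scale); filled circles passed a limma adjusted p of 0.05. Grey lines and bands give the median and quartiles of all probe sets in 5 bins of span; cdr-2, mtl-1 and ftn-1 lie above the band of their bin (upper quartile 0.26), as do, more narrowly, 1 uncalled probe set each of mtl-2 and ftn-2, and hmt-1 lies below its own (lower quartile -0.26).

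Whole worms mix all tissues, and fewer cells of a type cannot be told apart from less RNA per cell. Markers of the intestine, where several members are expressed, were 0 of 7 higher and 1 of 7 lower (act-5). The mean of the list ran from 10.90 to 10.99 in the Au-NP arrays and from 11.005 to 11.15 in the control arrays. The log2 change of act-5 was -0.85, and the probe sets of the other intestinal markers ran from -0.05 (asp-1) to 0.24 (elt-2). The lower list mean in Au-NP is therefore no shift of the whole list. Pharyngeal markers, from another tissue in which mtl-1 is expressed, were lower in 3 of 4 genes, with list means from 8.42 to 8.72 in Au-NP and from 9.42 to 9.65 in control. Germ-line markers were lower in 3 of 5 genes, from 9.22 to 9.83 in Au-NP and from 10.21 to 10.45 in control, and body-wall muscle markers in 3 of 5, from 10.76 to 10.97 and from 11.18 to 11.32. The coelomocyte markers unc-122, cup-4 and lgc-26, of scavenger cells in which HMT-1 is made, passed in 0 of 3 (1 at an unadjusted limma p below 0.05), with list means from 7.64 to 7.73 in Au-NP and from 7.80 to 7.81 in control. Hypodermal markers were 1 of 5 higher and 0 lower, and neuronal ones 1 of 5 higher and 1 lower. Over all genes the shares were 7.49% higher and 4.94% lower, and at the unadjusted limma p 18.9% and 9.1%. The part of tissue shares in the members' changes was not tested.

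**Figure D5:**
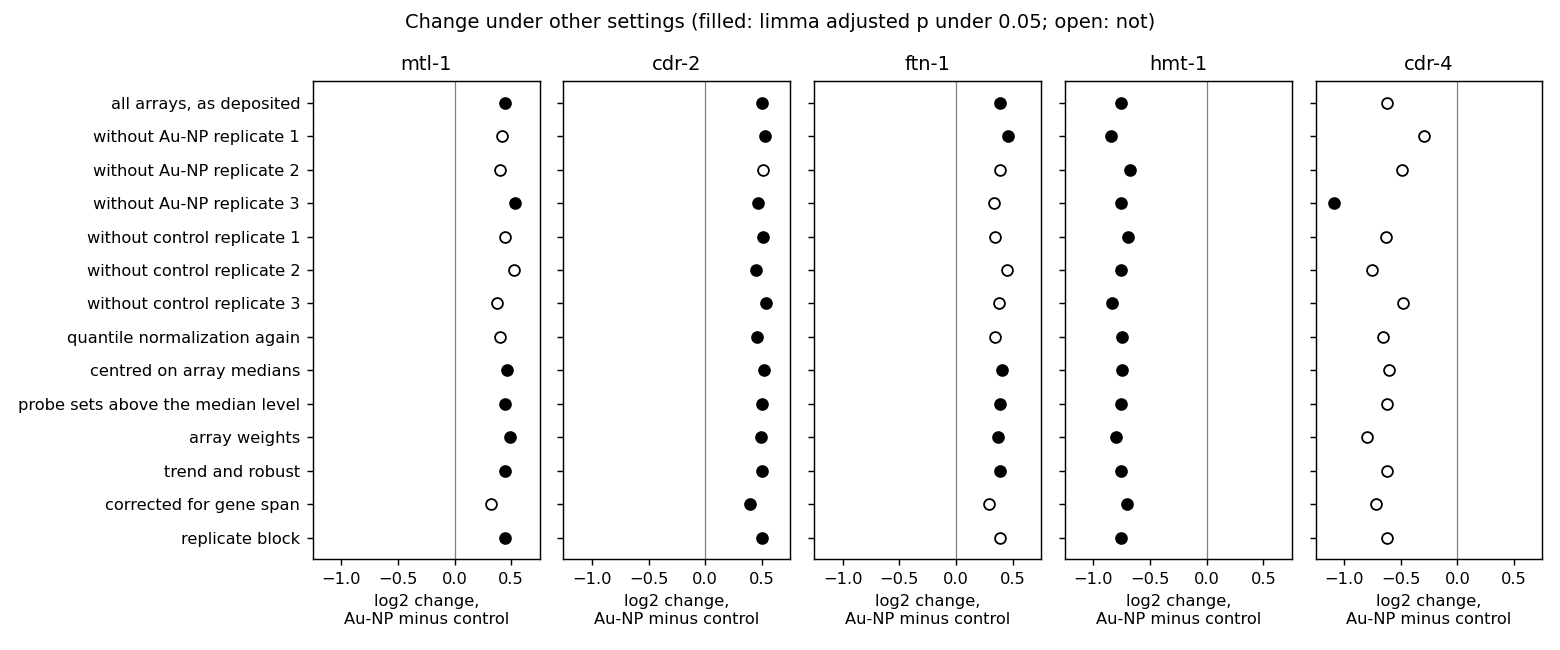
Log2 change (x axis, Au-NP minus control, same scale in all panels) of the 4 called members and cdr-4 under each setting (rows); filled circles passed a limma adjusted p of 0.05. The circles of hmt-1 are filled in every row, cdr-2 is open without Au-NP replicate 2, mtl-1 and ftn-1 change with several settings, and cdr-4 is filled only without Au-NP replicate 3.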

How the data were processed

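Affymetrix arrays of 3 Au-NP and 3 control RNA samples were read from the deposited value table (22625 probe sets, 77 Affymetrix controls left out). The authors deposited 1 log2 value per probe set and array. RMA (background correction, quantile normalization, summary of the probes) and Partek 6.4 appear in the submitters' processing notes. No scale is written in the table, and log2 was inferred from its range of 3.44 to 15.2. RMA compresses low signals and forces 1 distribution of probe signals on all arrays before the summary. No scanner file was used, so background and saturation were not judged, and the number of arrays limits precision. Coordinates are left out, since neither the labels nor the table state a genome build, and no sequence was used here. Gene order and span come from the RefSeq gene table of WBcel235.

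By the platform annotation 20766 tested probe sets had 1 symbol, 887 several and 895 none. The comparison used limma 3.58.1 (lmFit, eBayes, group as the only term, two-sided, 4 residual degrees of freedom, prior 3.39) under R 4.3.3 and was tested on simulated data. Of simulated log2 changes of 0.5, 1 and 2, it recovered 30.4%, 84.8% and 97.2%. Changes of 0.5 were thus mostly missed there. Members, lists and alternatives were chosen with earlier results of these data known. Named were all members, the called genes of the wider lists (up to 4 per list) and elt-2, hizr-1, aco-1 and daf-16. The genes cdr-3 and cdr-6 and the markers act-5, unc-122, cup-4 and lgc-26, and hrg-9, cua-1, gss-1 and skn-1, were named outside that rule after their values were seen, and hif-1 had no probe set of a single symbol. Alternatives were a replicate block, leaving out each array, a further quantile normalization, median centring, a level filter, array weights, trend and robust variances, the span correction, leaving out cross-hybridizing suffixes, an adjusted p of 0.01 and averaging the probe sets of a gene.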

Additional observations from a re-analysis of the deposited data

How the results depend on the processing

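Of 159 member values under alternatives, 141 kept their direction and their side of the threshold, 16 were no longer past it, 1 came past it (cdr-4 without Au-NP replicate 3) and 1 turned (cdr-1, to -0.027 after the span correction). Against 3 member probe sets higher and 1 lower, leaving out single arrays gave 0 to 2 higher (0 without Au-NP replicate 2, with 4 at an unadjusted limma p below 0.05, where 12.4% of all probe sets were higher) and 1 to 2 lower. The further quantile normalization and the span correction each left 1 higher. An adjusted p of 0.01 left 0 higher and 0 lower (5 and 1 genes at an unadjusted limma p below 0.05, against 18.9% and 9.1% of all genes). Leaving out possible cross-hybridization left 2 higher and 0 lower, since the probe sets of ftn-1 and hmt-1 are then absent. Over all probe sets, 1408 higher and 1281 lower became 146 to 2047 higher and 410 to 1953 lower without single arrays, and 121 and 383 at an adjusted p of 0.01. There were 2372 higher with array weights, and 628 lower without possible cross-hybridization. The span correction left 759 higher and 1094 lower, which put the higher share of calls at 41% against 52.4%. With the probe sets of a gene averaged, 3 member genes were higher and 1 lower, as before.

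The replicate number as a block gave 2 member probe sets higher and 1 lower (1100 and 1173 over all), with ftn-1 at a limma adjusted p of 0.0504. Deviations of same-numbered arrays correlated at -0.33, 0.43 and 0.22, and those of differently numbered arrays from -0.60 to 0.48. With so few arrays per group these values cannot decide whether the numbers pair the samples. The 51 genes of the wider lists were also counted in each refit, an alternative chosen after seeing the data. Against 3 higher and 1 lower, leaving out single arrays gave 0 to 2 higher and 0 to 5 lower genes, the 5 without Au-NP replicate 3. The change of cdr-3 lay between -0.024 and 0.052 without single arrays (negative without Au-NP replicate 1), at -0.0022 with array weights and at -0.092 after the span correction, and 1 daf-16 probe set had 0.0084 after that correction. The other gss-1 probe set lay between -0.19 and 0.0067 without single arrays (positive without Au-NP replicate 1). The causes were not tested.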
